A study of Mus musculus with 2 samples.

Results

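The Rab genes of a list of C-to-U editing sites from mouse cortical nuclei are described here. Every gene whose name in the list begins with Rab and a digit was taken, with all of its sites. The rule uses names only and no editing value. It took 86 sites in 35 genes, of 17755 sites in 6929 genes in the whole list. By known function 27 of the 35 genes encode Rab GTPases and hold 67 of the sites. Another 7 encode proteins that act on or with Rab GTPases (Rab11fip1, Rab11fip2, Rab11fip3, Rab11fip4, Rab3gap1, Rab3gap2 and Rab3il1) and hold 18 sites. The remaining site lies in Rab10os, a noncoding gene on the strand opposite to Rab10.

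The study has a single group of 2 libraries. Nuclei came from the cortex of mice carrying APOBEC1-YTH, a fusion of a cytidine deaminase to a domain that binds N6-methyladenosine (m6A), in which cytidines near the modified base are converted to uridine. Mice were 10 weeks old at the first of the daily tamoxifen doses (20 mg/kg, for 5 days), and the cortex was collected 7 days after the final one. Nuclei were fixed in 50% ethanol and sorted with an antibody to NeuN, a nuclear protein of neurons whose gene is Rbfox3. The labels name neither the promoter of the fusion nor the number of animals behind each library, and no library without the fusion was analysed here. The authors' list gives 1 editing fraction per site for both libraries together, with 0 columns of coverage and 0 columns of values per library. Depth is therefore unknown, and no spread between libraries can be given. Each SD below is a spread across sites or genes, each interval covers counting error only, and no difference below carries a test across samples.

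The labelled cell type was set against marker genes. Of 10 neuronal markers 5 had a site (15 sites), and Rbfox3, Gad1, Gad2, Stmn2 and Tubb3 had none. Of 8 astrocyte markers 6 had a site (148 sites), as had 8 of 8 for oligodendrocytes (49 sites), 3 of 8 for microglia (14 sites) and 8 of 8 for endothelium and pericytes (60 sites). Beside these, 28.3% of all protein-coding genes had a site. Neuronal markers did not stand out from those of the other types, so these counts do not bear out the label. Which cells the Rab sites came from was not tested. In such a bulk sample, fewer cells of a type, less RNA per cell and less methylated RNA cannot be told apart.

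Rab proteins are small GTPases that switch between a GTP-bound form on a membrane and a GDP-bound form in the cytosol. Each marks particular membranes, where its active form recruits effectors such as tethers and motor adaptors. Exchange factors load GTP, GTPase-activating proteins promote its hydrolysis, and GDP dissociation inhibitors return the inactive form to the cytosol. In neurons this cycle serves the release of synaptic vesicles, the recycling of receptors at dendrites and transport along axons. m6A is deposited on nascent RNA at adenosines that precede a cytidine, and it is read by YTH proteins.

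A sequence around the edited base could be read for 3 Rab sites, those that fell in a RefSeq start-site window (GRCm38.p6, 250 bases before to 50 after an annotated start). Only the Rab28 site lies in a window of its own gene. Those of Rab23 and Rab24 lie in the windows of the opposite-strand neighbours Gm32229 and Prelid1, whose sequence was read on the strand of the Rab gene. The 3 sequences show the base that is edited and its neighbours, near gene starts because only those windows were at hand. Each is given 5′ to 3′ on the strand of the Rab gene, with the edited cytidine in capitals.
Rab23, chr1:33720064-33720084, plus strand: ctgtgcgttcCgggctcggtg
Rab24, chr13:55321819-55321839, minus strand: cagggctctgCggcgcggtgg
Rab28, chr5:41708134-41708154, minus strand: gggaggagggCaagatggcgg

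The Rab23 site lay 178 bases past the annotated start of its gene and was edited at 3.92%. The Rab24 site lay 151 bases past the start and was edited at 3.08%, and the Rab28 site 35 bases past the nearest annotated start, at 4.65%. None of the 3 windows of 21 bases held the letters GAC or AAC, searched on the strand of the site, and none had an A directly before the edited cytidine. Over the whole list, 255 sites fell in a start-site window and 255 of 255 were a C on the listed strand. Of the 232 with 10 bases on each side, 36.6% held GAC or AAC and 16.8% had an A directly before the edited C. These letters are a description of a window and show neither an m6A site nor its absence.

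The share of Rab genes with a site was above that of all protein-coding genes taken without regard to length. RefSeq names 69 protein-coding genes of the pattern, of which 34 had at least 1 site (49.3%, exact 95% interval 37.0% to 61.6%), beside 28.3% of all 21900 protein-coding genes. Among Rab GTPase genes alone the count was 27 of 59 (45.8%). None of the 5 Rab pseudogenes and 1 of the 4 noncoding genes had a site. Gene length went with the presence of a site: the 34 Rab genes with a site had a median span of 34.8 kb and the 35 without had 22.1 kb, beside 17.1 kb for all protein-coding genes. Within spans under 15 kb, 5 of 18 Rab genes had a site (27.8%, exact 95% interval 9.69% to 53.5%, beside 15.4% of all protein-coding genes of that length). From 15 to under 40 kb it was 15 of 30 (50.0%, 31.3% to 68.7%, beside 32.0%), and at 40 kb or more 14 of 21 (66.7%, 43.0% to 85.4%, beside 46.4%). The Rab share was thus above that of all protein-coding genes in every length class. Each class is small and its interval held the share of all protein-coding genes. The classes were not tested together, so the intervals do not show that length accounts for the difference. The comparison takes in genes that cortex does not express, and the part of expression in the difference was not tested.

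**Figure D1:**
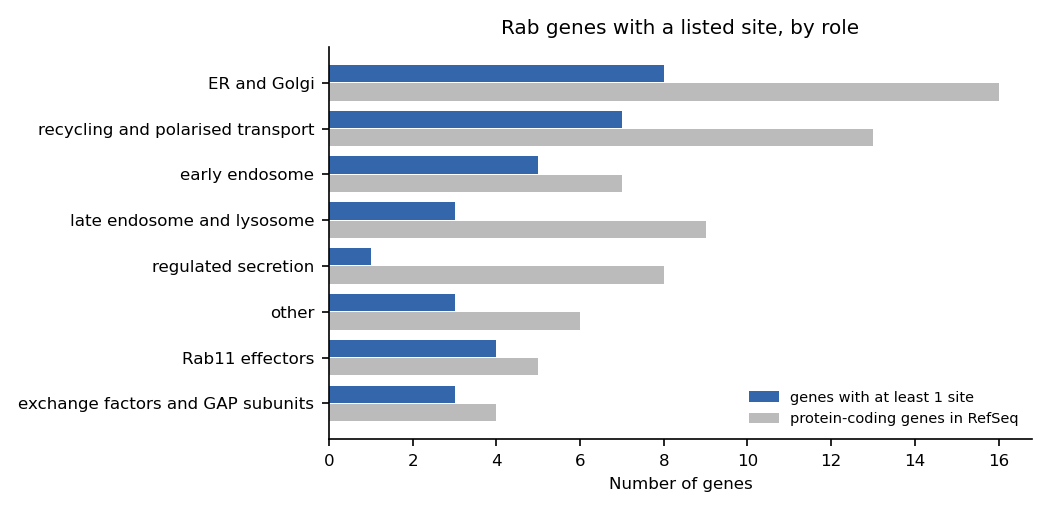
Number of protein-coding Rab genes with at least 1 listed site (blue) and in RefSeq (grey), by role of the encoded protein. Early endosomal genes stand at 5 of 7 and genes of regulated secretion at 1 of 8, beside 28.3% of all protein-coding genes.

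The number of genes with a site ran from 1 of 8 to 4 of 5 across the roles, as the plot of genes by role shows. Regulated secretion stood lowest, with 1 of 8 genes. Early endosomal Rabs stood at 5 of 7, ER and Golgi Rabs at 8 of 16, recycling and polarised transport at 7 of 13, and late endosome and lysosome at 3 of 9. Effectors of Rab11 stood at 4 of 5, and the exchange factors with the Rab3 GTPase-activating subunits at 3 of 4. Rab5if, whose product is no Rab GTPase, had no site. Beside these stand 28.3% of all protein-coding genes, and 46.4% of those with a span of 40 kb or more. The groups are small and were not matched for gene length. The differences between them, and from all genes, were not tested.

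Of the 8 Rabs of regulated secretion 1 had a site, beside 28.3% of all protein-coding genes. The group is too small to read a difference from this count. Rab3a, the synaptic vesicle GTPase of neurons (chromosome 8, 70754703 to 70758608), had 1 site at 4.76%, 158 bp from the 3′ end of its span. Its paralogs Rab3b, Rab3c and Rab3d had none, and Rab3c spans 227 kb, the longest of the 35 coding Rab genes without a site. Rab27a and Rab27b, which act in the docking of secretory granules, had none either, nor had Rab26 and Rab37. Absence from the list does not separate RNA that is not methylated from RNA that is not expressed or not covered.

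Regulators of Rab3 held the highest level among the Rab genes. Rab3gap2, the noncatalytic subunit of the Rab3 GTPase-activating complex (chromosome 1, 185204088 to 185286756), had sites at 1.68%, 35.5% and 1.49%. The 35.5% site lay 141 nt from the 1.49% site, so that neighbours in the last 5 kb of this gene differed 23.8-fold. Rab3gap1, the catalytic subunit, had 18.2% at 512 bp from the 3′ end and 6.45% at 12854 bp. The same complex is the exchange factor of Rab18, a GTPase of the ER and of lipid droplets, and loss of human RAB3GAP1, RAB3GAP2 or RAB18 causes Warburg Micro syndrome. Rab18 (chromosome 18, 6765167 to 6791606) had 3 sites at 10.5%, 20.0% and 11.1%, all within 871 bp. Its gene mean of 13.9% ± 5.31 was the highest of the 35 genes, and Rab3gap2 (12.9% ± 19.6) and Rab3gap1 (12.3% ± 8.29) came next. All 3 Rab18 sites were above 10%, whereas the mean of Rab3gap2 rests on 1 of its 3 sites. Coverage of these sites is not given, so a high level could rest on few reads. Levels such as 20.0%, 18.2% and 11.1% are fractions that small read counts can give, and whether they do here was not tested. The order of these means is uncertain to that extent. Rab3il1, which encodes an exchange factor, had 1 site at 10.3%, and its relative Rab3ip had none.

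**Figure D2:**
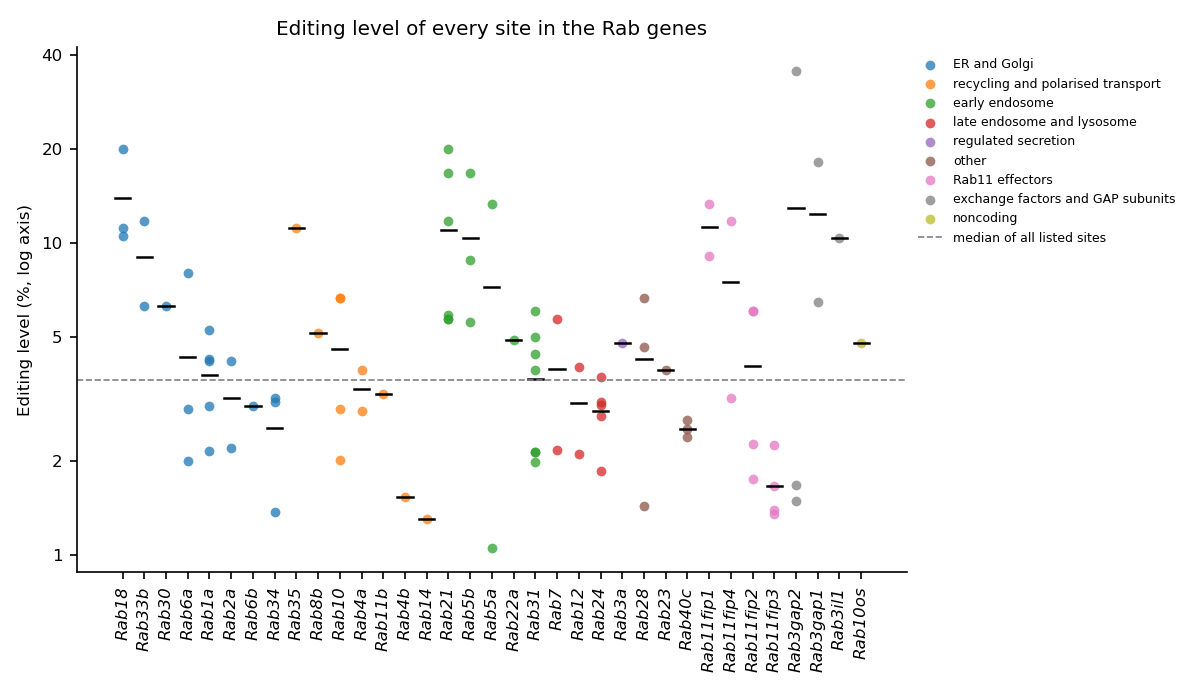
Editing level of each of the 86 sites (points, log axis) by gene, coloured by role and ordered within a role by the gene mean (bars), with the median of all listed sites (3.64%) dashed. Rab18, Rab21, Rab5b and the Rab3gap genes reach the highest levels, and Rab11fip3, Rab14 and Rab4b sit lowest.

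Early endosomal Rabs included the gene with the most sites and several of the highest levels. Rab31, a relative of Rab22a that acts at early endosomes and the trans-Golgi network (chromosome 17, 65651726 to 65772752), had the most sites of any Rab gene. Its 7 levels were 5.0%, 6.06%, 4.40%, 2.13%, 1.98%, 3.92% and 2.13%, a mean of 3.66% ± 1.62. The first 5 lay together 2038 to 2512 bp from the 3′ end, 1 in the middle of the span, and the last 137 bp from the 5′ end.

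Rab21, which acts in integrin and receptor endocytosis (chromosome 10, 115289862 to 115317419), had 6 sites, with a mean of 11% ± 6.26. Counted from the 3′ side, they stood at 5.88%, 5.71%, 5.71%, 11.8%, 16.7% and 20.0%. The first lay 1072 bp beyond the RefSeq end of the gene and was the only Rab site outside its span. The 3 sites of 11.8% to 20.0% lay within 60 nt, further inside the gene than the 3 of 5.71% to 5.88%.

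Rab5 proteins organise the fusion of early endosomes. Rab5b had 3 sites at 8.82%, 5.56% and 16.7%, all in the last 5 kb. Rab5a had 13.3% at 212 bp from the 3′ end and 1.05% at 79 bp from the 5′ end, a 12.7-fold difference within the gene, and its 1.05% was the lowest level of any Rab site. The higher site lies within the overlapping span of Pp2d1, whose strand was not available here. Its assignment to Rab5a, and with it the 12.7-fold difference, is therefore uncertain. Rab5c had no site, and Rab22a had 1 at 4.88%.

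ER and Golgi Rabs had 15 of 20 sites in the last 5 kb, beside 49.7% of all sites inside gene spans. The 3 sites of Rab34 are among the 15, and its span of 3.77 kb lies wholly in that stretch. Rab1a, which serves ER-to-Golgi transport (chromosome 11, 20201412 to 20226856), had 5 sites at 2.99%, 5.26%, 2.15%, 4.17% and 4.23%. The last 4 lay within 83 nt and spanned 2.15% to 5.26%. Rab6a, a Golgi Rab, had 2.00%, 8.0% and 2.94%, and the brain paralog Rab6b had 1 site at 2.99%. Rab33b, which acts in Golgi traffic and autophagy, had 6.25% at 139 bp from the 5′ end and 11.8% at 1435 bp from the 3′ end. Rab30 had 1 site at 6.25%, Rab2a had 4.17% and 2.20%, and Rab34 had 3.17%, 3.08% and 1.37%. Rab18, described above, stood apart from these genes with every site above 10%.

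Recycling Rabs had 11 sites in 7 genes, from 1 to 4 each, beside a median of 2 per gene in the whole list. Rab10, which acts in exocytic and axonal membrane delivery (chromosome 12, 3247428 to 3309969), had 4 sites at 2.94%, 6.67%, 6.67% and 2.02%. The first 3 of these lie within the span of Rab10os, which is annotated on the other strand and had its own site at 4.76%. The library kit was stranded per the labels, but whether the calling used the read strand is not given in the sources used here, so the assignment of those 3 sites to Rab10 is uncertain. Rab11b, which works at recycling endosomes, had 1 site at 3.28% and Rab11a had none. Rab4a had 2.90% and 3.92%, and Rab4b 1.53%. Rab35, an endosomal Rab, reached 11.1% at its only site, Rab8b 5.13%, and Rab14 1.30%.

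Rab11 effectors (the Rab11 family-interacting proteins) had 3 of their 12 sites in the last 5 kb, beside 49.7% of all sites. The 12 sites come from 4 genes, and 8 of them from Rab11fip2 and Rab11fip3. Rab11fip2, which links Rab11 to the motor myosin Vb, had sites at 2.27%, 1.75%, 6.06% and 6.06%, all within 6360 bp of the 5′ end of a 50155 bp span. Rab11fip3 had 1.66%, 2.25%, 1.39% and 1.35%. Of these 3 lay 1622 to 2033 bp from the 5′ end, and its mean of 1.66% ± 0.41 was among the lowest. Rab11fip1 was edited at 9.09% and 13.3%, the higher site 409 bp from the 5′ end, and Rab11fip4 at 3.17% and 11.8%, both in the last 5 kb. Rab11fip5 had no site. The levels of Rab11fip1 (2 sites) and Rab11fip3 (4 sites) did not overlap, but with so few sites no difference is read from this. How often other listed genes overlap was not counted.

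Late endosomal Rabs and those outside the named routes had no site above 6.67%, beside an upper quartile of 6.90% for all listed sites. Their 9 and 7 sites come from 3 genes in each group. Rab24, a Rab of the autophagic pathway (chromosome 13, 55319223 to 55321980), had 5 sites in a span of 2.76 kb, at 3.70%, 2.78%, 1.85%, 3.03% and 3.08%. Its SD of 0.67 about a mean of 2.89% was small beside that of Rab21. Rab7, the Rab of late endosomes and lysosomes, had 2.17% and 5.71%, and Rab12 had 4.0% and 2.11%. The Rab12 site at 2.11%, in the first 1 kb, lies within the opposite-strand noncoding gene Gm41608, so its assignment is uncertain like that of the Rab10 sites. Rab9, Rab9b, Rab7b, Rab29, Rab32 and Rab38 had none. Among the Rabs outside these groups, Rab40c, the substrate receptor of a ubiquitin ligase, had 2.7%, 2.38% and 2.53%. Rab28, a Rab linked to photoreceptor cilia, had 6.67%, 1.43% and 4.65%, and Rab23, a regulator of Hedgehog signalling, had the single site shown above.

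Close paralogs had sites at a share like that of all Rab GTPase genes. Of 14 sets of Rab GTPases that share a number and differ by letter, 3 had no member with a site (Rab9, Rab27 and Rab39), 8 had 1, and 3 had 2 (Rab4, Rab5 and Rab6). These sets hold 31 genes, 14 of them with a site (45.2%), beside 45.8% of all Rab GTPase genes, so the share per gene in the sets was like that of the family. How many sets with a single such member this share alone would give was not worked out. Where a single member had sites it was Rab1a and not Rab1b, Rab2a and not Rab2b, Rab7 and not Rab7b, Rab8b and not Rab8a, Rab11b and not Rab11a, Rab33b and not Rab33a, Rab40c and not Rab40b, and Rab3a alone of the 4 Rab3 genes. RefSeq also lists pseudogenes named for Rab5a, Rab7, Rab9b and Rab11b. How reads that fit several copies were counted is not given in the sources used here, so the levels of Rab5a, Rab7 and Rab11b are uncertain to that extent.

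The number of sites per gene and their levels were like those of the list. Rab genes had 2.46 sites each, beside 2.56 per gene in the whole list, with a median of 2 in both. A single site was found in 12 of the 35 (34.3%, beside 49.2% of all listed genes), and 4 genes had 5 or more (11.4%, beside 13.5%). The median Rab site stood at 4.09% (quartiles 2.26% and 6.4%), beside 3.64% (2.01% and 6.90%) for all sites. Averaged per gene first, the order was the other way, with a median of 4.31% for Rab genes beside 5.0% for all genes. With sites under 5% left out it turned again, to 9.67% for 20 Rab genes beside 9.09%. Levels of 10% or more occurred at 15 Rab sites (17.4%, beside 14.9% of all sites) in 11 genes (31.4%, beside 31.5% of all listed genes), and 3 sites reached 20% or more (3.49%, beside 2.02% of all sites). The 6 highest were those of Rab3gap2 (35.5%), Rab18 and Rab21 (20.0% each), Rab3gap1 (18.2%), and Rab21 and Rab5b (16.7% each). The 6 lowest were those of Rab5a (1.05%), Rab14 (1.30%), Rab11fip3 (1.35%), Rab34 (1.37%), Rab11fip3 (1.39%) and Rab28 (1.43%). The list stops at 1.0%, so lower levels are not seen.

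**Figure D3:**
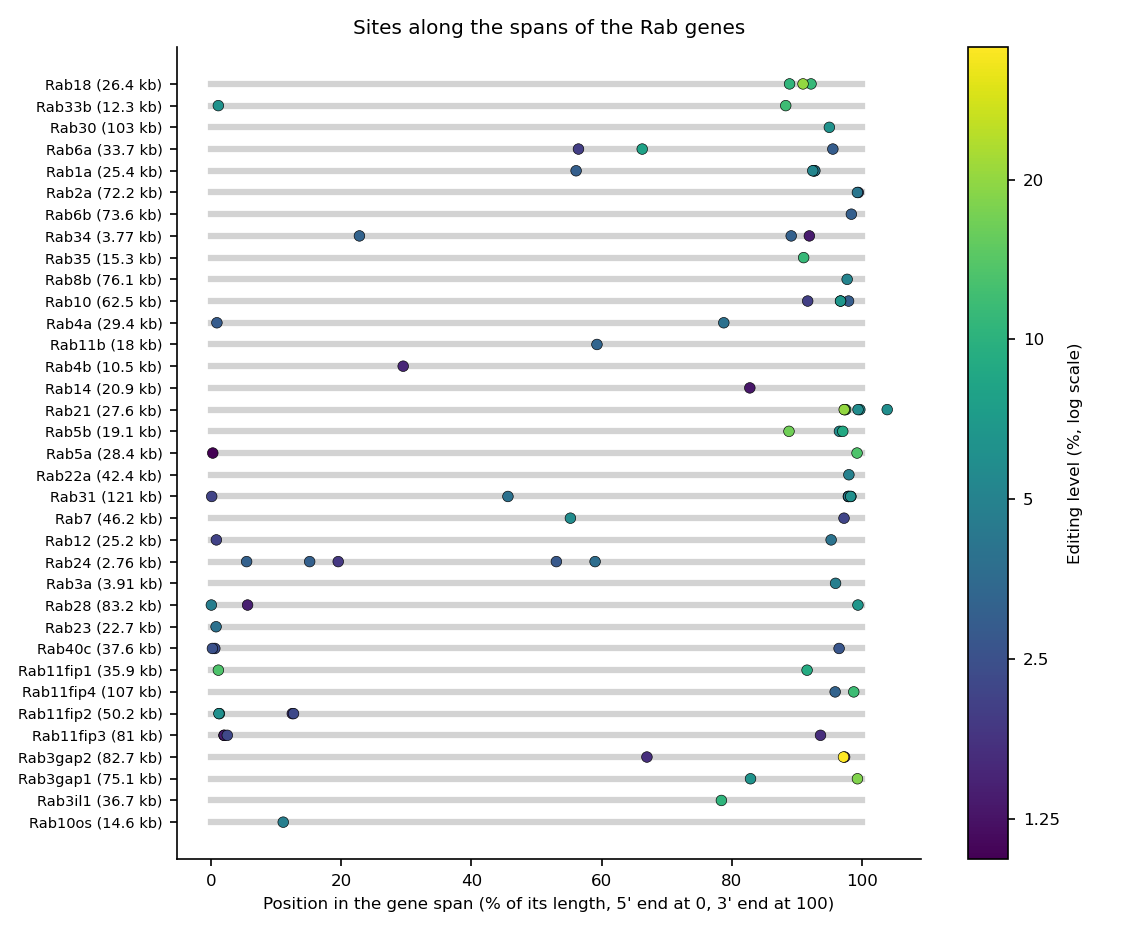
Position of each site along the span of its gene (5′ end at 0, 3′ end at 100% of the length; the span length is given after the name), coloured by editing level. Sites gather at the right end, with a smaller set at the left end in 12 genes, and the 1 point beyond the span belongs to Rab21.

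Sites of the Rab genes gathered at the 3′ end of the span and, to a lesser degree, at the 5′ end. Of 85 sites inside the spans, 52 lay in the last 5 kb (61.2%, exact 95% interval 50.0% to 71.6%), beside 49.7% of sites in the whole list. For Rab GTPase genes alone it was 46 of 66 (69.7%). The first 1 kb held 16 sites (18.8%, 11.2% to 28.8%) in 12 genes, beside 8.02% of all sites, a count looked at after the values had been seen. Some of these fall in short genes: 4 of the 16 also lay in the last 5 kb, in Rab24 and Rab34. In spans of 20 kb or more the first 1 kb held 11 of 67 Rab sites (16.4%, 8.49% to 27.5%), beside 6.05% of all sites in such spans. Sites of the same gene are not independent, so these intervals are too narrow.

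Sites at both ends were counted in spans over 6 kb, where the stretches cannot overlap, after the values had been seen. Of 32 Rab genes 7 had a site at both ends, beside 6.98% of such genes in the list. Another 16 had a site in the last 5 kb and not the first 1 kb, 3 the reverse, and 6 in neither. Of the 5762 such genes in the list these counts were 3064, 531 and 1765. Among genes with at least 2 sites 7 of 21 had a site at both ends, beside 12.7%. The 12 Rab sites in the first 1 kb that lay outside the last 5 kb had a median of 3.41%, beside 3.08% for such sites in the list, and ran from 1.05% in Rab5a to 13.3% in Rab11fip1. Rab sites in the last 5 kb had a median of 4.82% (quartiles 2.98% and 9.45%), beside 4.35% (2.33% and 8.0%) for the list. The 21 Rab sites in neither stretch had a median of 2.27%, beside 2.94% for the list. Among 13 Rab genes with sites both in the last 5 kb and elsewhere, 10 had the higher mean near the end, beside 71.0% of 1619 such genes in the list. The exceptions were Rab11fip1, Rab6a and Rab7. A low level needs deep coverage to be called. Coverage along these genes is not given, and its part in these differences was not tested.

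**Figure D4:**
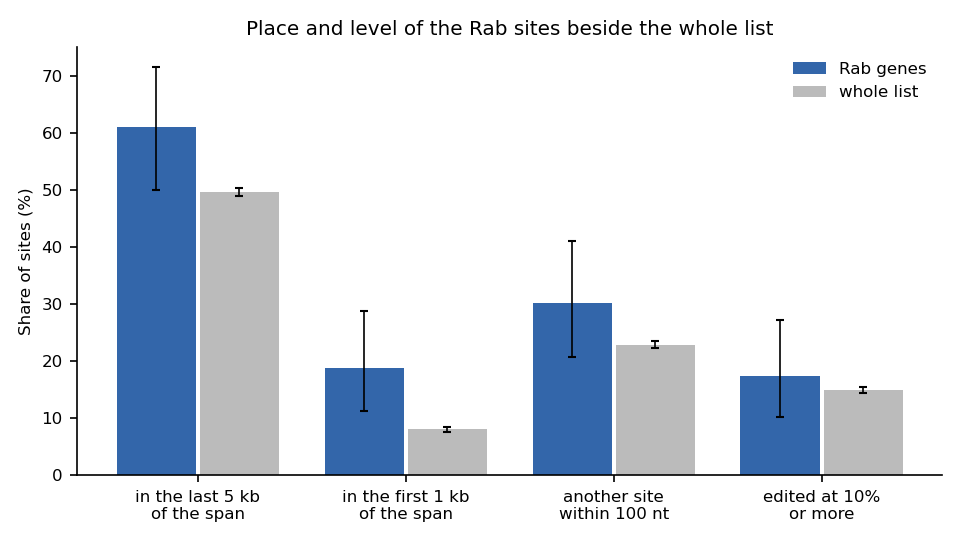
Share of sites in the Rab genes (blue) and in the whole list (grey) that lie in the last 5 kb or the first 1 kb of the gene span, have another site of the gene within 100 nt, or are edited at 10% or more. Error bars are exact 95% intervals for counting error; the first 1 kb stands at 18.8% beside 8.02%.

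Some Rab sites came in tight groups. Another site of the same gene lay within 100 nt for 26 of 86 (30.2%, exact 95% interval 20.8% to 41.1%), beside 22.8% of all sites. At 20 nt the order turned, with 6 Rab sites (6.98%) beside 8.72%. The closest pair were the Rab31 sites 4 nt apart, at 4.40% and 2.13%. Next came the Rab10 sites 12 nt apart, both at 6.67%, and the Rab21 sites 17 nt apart, at 16.7% and 20.0%. At the other extreme, the sites of Rab31 spread over 118851 bp, those of Rab28 over 82664 bp and those of Rab11fip3 over 74266 bp.

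Genes that act on Rab proteins but do not bear the name also carried sites. Of 60 such partners 41 had a site (68.3%, beside 28.3% of all protein-coding genes), with 100 sites in all and a median gene mean of 4.23%. Their median span was 86.2 kb, and of the 44 with a span of 40 kb or more 32 had a site (72.7%, exact 95% interval 57.2% to 85.0%), beside 46.4% of all protein-coding genes of that length. The motor gene Myo5a, whose product is recruited by Rab27 and Rab11, had 6 sites (mean 5.32%), as had Dennd5a, an exchange factor gene (2.04%). The dynein adaptor gene Bicd2, a Rab6 effector, had 5 sites of 1.27% to 30.0%. Eea1, the early endosomal tether recruited by Rab5, had 5 sites at a mean of 3.11%, and Rabep1, another Rab5 effector, had 4 at 2.59%. Evi5, a gene with a GTPase-activating TBC domain, had 5 sites (5.33%), and its fellow TBC genes Usp6nl (4.23%) and Tbc1d5 (3.13%) had 4 each. Gdi2, a GDP dissociation inhibitor, had 4 sites (3.20%), as had Ehbp1 (3.08%) and Dennd1a, an exchange factor for Rab35 (1.95%). Rims2, an active zone gene whose product binds Rab3, had 3 sites of 5.56% to 11.8%. Rab3a itself had 1 site in a span of 3.91 kb, and these genes were not matched for length.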

How the data were processed

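The authors deposited a list in which each value is the fraction of C-to-U conversion called at a site by the Bullseye pipeline, per the series' design text; it is given here in percent. STAR 2.7.5 and the build mm10 are named in the submitters' processing notes. How both libraries were merged, which control was used and what coverage was asked for is not given in the sources used here. Position is the third column (1-based).

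Names were matched to RefSeq GRCm38.p6, by symbol or by a synonym of 1 gene only (93.2% of 6929 names, all 35 Rab names), with Python 3.11.15, pandas 2.3.3 and scipy 1.17.1. The strand of a gene was that of its sites. It was that of the promoter table for 74 of the 74 Rab sites whose gene is in that table. Exons and UTRs were not used here. Distances were tested on simulated sites. Intervals are exact (Clopper-Pearson).

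Members, roles, partners and markers were chosen with earlier results of these data known. Every site is given for genes with at least 4 sites and for the Rab3, Rab11, Rab27, Rab11fip and Rab3gap genes, besides the 6 highest and lowest sites and the 12 partners with the most sites. Other genes were named to account for each member. Alternatives changed the minimum level, the members, the windows and the value per gene. The first 1 kb, genes with sites at both ends and partners by length were added after the values had been seen.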

Additional observations from a re-analysis of the deposited data

How the results depend on the processing

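With sites under 5% left out, 35 Rab sites in 20 genes remained, the median gene mean was 9.67% and 73.5% of sites lay in the last 5 kb (61.0% of the list). With a window of 2 kb that share was 37.6%, beside 29.9%. Another site was near for 6.98% at 20 nt and 46.5% at 500 nt. Rab GTPase genes alone left 6 genes with a site at 10% or more, and 3 Rab genes had a site at 20% or more. Counts and medians shift with fewer sites, and shares with another window, by construction; the cause of the higher share in the last 5 kb among sites of at least 5% was not tested. The other 32 of 41 recomputed values stayed within 1.5 times the value reported, or within its counting interval. Without Rab31, the gene with the most sites, 26.6% of sites had a neighbour within 100 nt and 60.3% lay in the last 5 kb. Rab10os, left out after the values had been seen, moved the median gene mean to 4.28%. No paired analysis was possible because the list holds 1 group and no values per library. For the same reason no library could be left out in turn. Unknown depth limits every level given.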

Other observations

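Neighbouring Rab sites sometimes had the same listed level. Of 15 pairs of adjacent Rab sites within 100 nt, 3 had equal values: Rab10 (6.67%, 12 nt apart), Rab11fip2 (6.06%, 38 nt) and Rab21 (5.71%, 75 nt). In the whole list 74 of 2431 such pairs (3.04%) had equal values, and of pairs over 1000 nt apart 0 of 23 in Rab genes and 51 of 5324 in the list (0.958%). The Rab pairs were noticed in the data before they were counted, and no test was run.

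The 21-base windows around the sites near gene starts had a G directly before the edited C in 117 of 232 cases (50.4%) over the whole list. The values describe annotated starts alone.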
